A study of Mus musculus with 10 samples.

Results

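The pachytene fraction of the juvenile mouse testis was compared with a mixture of somatic organs, a comparison that separates RNA carried by meiotic germ cells from RNA carried by the rest of the body. Pachytene spermatocytes were cells of Percoll fraction 8 from testes of 15-day-old C57BL/6 males. The somatic mix was a pool of 11 tissues of 15-day-old C57BL/6 males, namely skin, spleen, brain, kidney, heart, muscle, lung, liver, stomach, colon and intestine. Samples were chosen by their titles, which gave 4 of the 10 samples of the series, 2 per group. The other groups were spermatogonia (fraction 2, day 8), leptotene and zygotene spermatocytes (fraction 5, day 12) and whole testis (day 15), and their signals are given only as context. All mice were untreated as far as the labels state, and the title of the series names a screen for genes acting in meiotic chromosome segregation. A density fraction is an enrichment and may hold other testis cells, and the sources used here do not give the share of each organ in the mix. The fraction came from testes digested with hyaluronidase, trypsin and collagenase and run on a Percoll gradient, while no isolation of cells from the other organs is described. Cell type and cell isolation therefore cannot be told apart in this comparison.

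Pachytene is the long stage of meiotic prophase in which homologous chromosomes are held together along their length by the synaptonemal complex and crossovers mature. Transcription of the autosomes is high in this stage, and many messages made in it are stored for the haploid spermatid that follows. The X and Y chromosomes, which have little to pair with, are condensed into the sex body and largely silenced. Several housekeeping enzymes have a second, germ cell copy on another chromosome that is read in spermatocytes.

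RNA was amplified, labelled with biotin and hybridised to 2 Affymetrix designs with different probe sets. The first sample of each group went to the first design and the second sample to the second, so every gene was read from 1 array per group and genes carry no p-value. A signal below is the deposited intensity of the gene's probe set after each array was scaled to a common trimmed mean. Signals under a floor (87.4 on the first design and 47.0 on the second) were treated as unmeasured, and a difference against the floor is a lower bound, written "at least". A difference is always log2 pachytene minus log2 somatic mix, and a gene was called at 4-fold or more in either direction. The 100 probe sets present on both designs gave the error of a difference, 0.31 on the log2 scale, and 95% limits of 0.61. They were the same probe sets on both designs, so this error leaves out the spread between different probe sets of a gene. Whether it holds for genes near the floor was not tested. The share of probe sets above the floor was 55.5% and 42.7% on the pachytene arrays and 64.2% and 56.0% on the mix arrays. The 3' to 5' signal ratio of Gapdh, a sign of RNA integrity, was 1.49 and 1.52 on the pachytene arrays and 1.21 and 1.18 on the mix arrays. The part of this difference in the results was not tested.

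Of 18195 genes read, 15032 were above the floor in at least 1 of the groups. At least 4-fold higher in pachytene were 1744 genes (11.6% of those measured), and at least 4-fold lower were 1829 (12.2%). The median difference of the 10334 genes above the floor in both groups was -0.18, with quartiles of -1.09 and 0.92. The balance of the calls depended on the scaling, since 48.8% of calls were in the higher direction here and 68.1% (2518 higher, 1179 lower) when arrays were scaled to their medians, which moved the median of genes above the floor in both groups by 0.42. Within the first design 1050 genes were higher and 1394 lower, and within the second 694 were higher and 435 lower. Of the higher genes, 616 were under the floor in the mix, 482 differed by 16-fold or more and 92 by 64-fold or more. Of the lower genes, 878 were under the floor in pachytene, 289 differed by 16-fold or more and 63 by 64-fold or more. Most higher genes (1594 of 1744) had their highest signal of the 5 groups in pachytene, while 61 had it in leptotene/zygotene and 19 in spermatogonia. In bulk RNA, a larger or smaller share of expressing cells and more or less RNA per cell cannot be told apart.

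**Figure D1:**
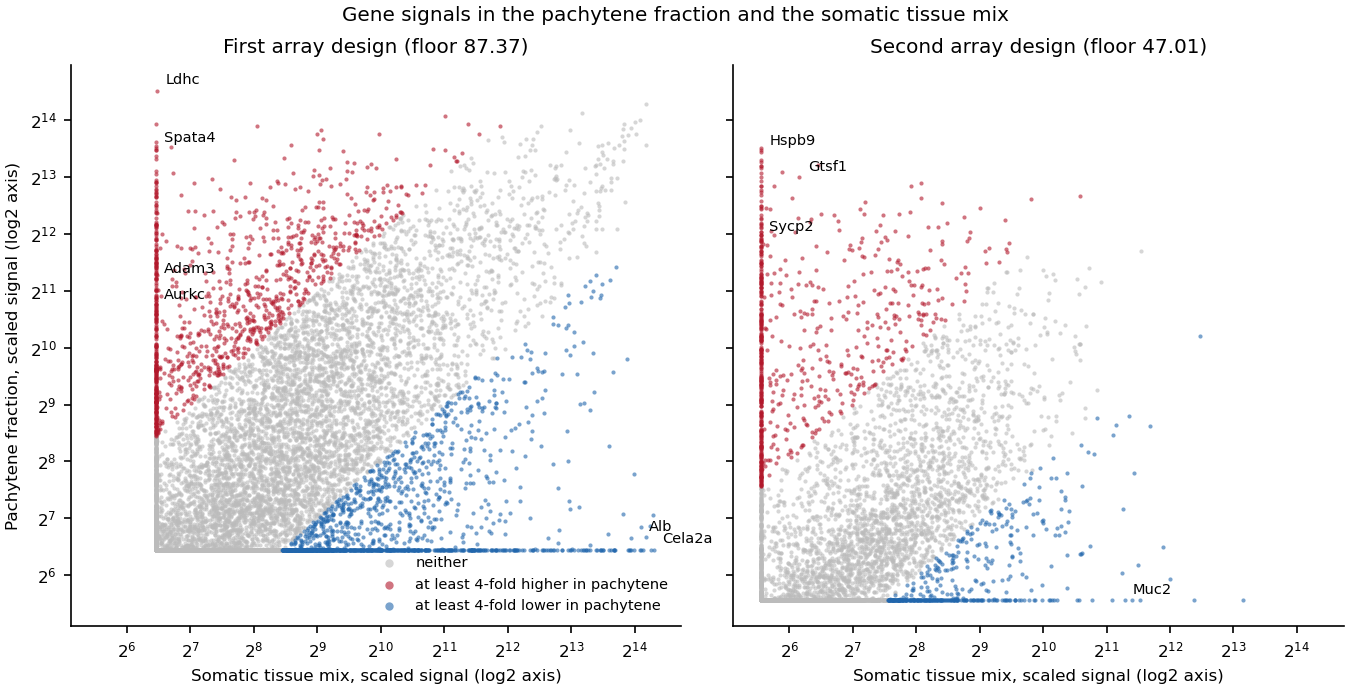
Scaled signal of each gene in the pachytene fraction (vertical) against the somatic mix (horizontal), both on log2 axes, with 1 panel per array design and signals under the floor drawn at it. Red points are the genes at least 4-fold higher in pachytene (1744 over both panels), blue points those at least 4-fold lower (1829), and the columns of points along the left and lower edges are genes at the floor in 1 group.

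The 4 markers of the fraction were all called higher in pachytene, each read on the first design. Ldhc, the lactate dehydrogenase subunit of spermatocytes and sperm, had a signal of 23494 in pachytene and 88.9 in the mix, a 264-fold difference. That mix signal was just above the floor of 87.4, so the difference is in effect a lower bound. A second Ldhc probe set read 17927 in pachytene and 45.8 in the mix, under the floor. Both stood far outside the error of a difference. Spata4, a spermatogenesis-associated gene, had 11658 in pachytene and 6.03 in the mix (at least 133-fold). Adam3, a sperm surface protein needed for binding the egg coat, had 2364 in pachytene and 3.66 in the mix (at least 27.1-fold). Aurkc, the germ cell Aurora kinase of the chromosomal passenger complex, had 1729 in pachytene and 56.4 in the mix (at least 19.8-fold). The markers also followed stage: the Ldhc signal was 58.8 in spermatogonia, 1855 in leptotene/zygotene and 23494 in pachytene. Of 24 pachytene markers, 22 were called higher and none lower, with a median difference of 5.10 against -0.33 over all measured genes. The exceptions were the linker histone H1f6 (100.2 in pachytene, 21.2 in the mix) and the transcription factor Ovol1 (244.8 in pachytene, 147.0 in the mix). All gene lists in this report were chosen with earlier results of these data known, so their counts are descriptions.

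Ldhc led the 8 genes taken for the size of their difference where both groups exceeded the floor, unnamed clones left out. The mix signals of Ldhc, Shcbp1l, Ttll8 and Marchf11 were close to the floor, so their folds and the order depend on it. With the floor at the 60th percentile the log2 difference of Ldhc fell from 8.05 to 6.71, and that of Morn5 from 7.22 to 7.06. Morn5, a MORN-repeat protein, followed with 8757 in pachytene and 58.8 in the mix (149-fold). Shcbp1l, a spindle protein of male meiosis, had 7349 in pachytene and 53.9 in the mix (136-fold). Gtsf1, a cofactor of PIWI proteins, had 8222 in pachytene and 71.4 in the mix (115-fold). The list went on with Dnaaf1, which assembles dynein arms, the tubulin glycylase Ttll8, Fam229b and the ubiquitin ligase Marchf11, all between 107-fold and 115-fold higher. With the mean over its probe sets, the Dnaaf1 difference fell from 6.84 to 5.05 on the log2 scale. Of genes under the floor in the mix, 8 were taken by their signal in pachytene. Rsph1, a radial spoke head protein of the axoneme, had 15701 in pachytene and 43.3 in the mix (at least 180-fold). Hspb9, a small heat shock protein of the testis, had 11173 in pachytene and 4.95 in the mix (at least 238-fold). Hspb9 was also under the floor in the earlier stages, with 2.96 in spermatogonia and 1.99 in leptotene/zygotene. Cmtm2b had 11470 in pachytene and 14.5 in the mix (at least 244-fold). The remaining 5 were Fabp9, a lipid carrier of germ cells, Catsperz, Spata4, the sperm outer-arm dynein Dnah8 and the ropporin-like Ropn1l, from at least 131-fold to at least 145-fold. Taking the mean over probe sets lowered the log2 difference of Fabp9 from 7.18 to 4.38 and of Dnah8 from 7.03 to 4.21.

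Promoters are shown for 4 of the higher genes, chosen after a motif search because each holds letters of a factor known in spermatocytes. The sequences are from RefSeq on GRCm38.p6, cover 250 bases before to 50 after the annotated start and are written 5' to 3' on the strand of the gene. Capitals mark GGCNGTT, the core bound by MYB factors such as the spermatocyte factor Mybl1, and GTTGCCA, part of the X-box bound by RFX factors such as Rfx2. Both motifs were searched on both strands, and they can overlap. Ropn1l lies at chr15:31453640-31453939 on the minus strand, Tcfl5 at chr2:180642642-180642941 on the minus strand, Pgk2 at chr17:40208560-40208859 on the minus strand and Spata4 at chr8:54600531-54600830 on the plus strand.
Ropn1l: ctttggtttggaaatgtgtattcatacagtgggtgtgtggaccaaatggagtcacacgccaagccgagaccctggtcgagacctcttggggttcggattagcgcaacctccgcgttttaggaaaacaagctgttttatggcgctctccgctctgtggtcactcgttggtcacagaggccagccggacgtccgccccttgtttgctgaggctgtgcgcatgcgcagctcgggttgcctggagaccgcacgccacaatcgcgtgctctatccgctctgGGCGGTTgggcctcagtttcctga
Tcfl5: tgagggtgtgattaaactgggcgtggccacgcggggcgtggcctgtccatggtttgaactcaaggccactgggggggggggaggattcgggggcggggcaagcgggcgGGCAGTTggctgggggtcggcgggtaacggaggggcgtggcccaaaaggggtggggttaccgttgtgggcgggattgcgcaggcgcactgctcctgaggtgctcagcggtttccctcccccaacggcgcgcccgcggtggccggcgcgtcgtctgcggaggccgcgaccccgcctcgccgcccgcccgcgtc
Pgk2: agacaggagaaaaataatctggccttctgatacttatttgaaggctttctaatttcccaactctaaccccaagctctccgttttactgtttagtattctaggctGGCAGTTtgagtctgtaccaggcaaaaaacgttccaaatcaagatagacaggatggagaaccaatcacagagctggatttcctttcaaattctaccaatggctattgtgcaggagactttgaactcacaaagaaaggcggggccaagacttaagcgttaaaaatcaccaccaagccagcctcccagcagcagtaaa
Spata4: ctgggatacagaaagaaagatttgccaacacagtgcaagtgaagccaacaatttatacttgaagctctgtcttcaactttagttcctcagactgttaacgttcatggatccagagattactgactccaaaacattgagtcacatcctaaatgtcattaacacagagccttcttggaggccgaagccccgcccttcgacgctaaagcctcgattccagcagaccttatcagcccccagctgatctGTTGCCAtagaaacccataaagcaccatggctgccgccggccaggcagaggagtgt
In the first 3 the capitals are a MYB core, and in Spata4 they are the RFX letters.

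Of the measured genes, 12007 had a promoter in the table. The MYB core letters stood in 21.1% of the 1457 promoters of higher genes, in 10.7% of the 1443 promoters of lower genes, in 13.4% of measured genes and in 12.0% of all 27025 promoters. Among the 494 higher genes under the floor in the mix the share was 23.9%. The RFX letters stood in 7.21% of higher, 3.19% of lower and 4.13% of measured genes. The letters TATAAA went the other way, with 7.34% of higher, 15.7% of lower and 8.84% of measured genes. The cyclic AMP response element TGACGTCA, the site of CREM, stood in 3.77% of higher, 1.52% of lower and 2.86% of measured genes, and the shorter TGACG, counted also inside it, in 31.1% of higher, 22.5% of lower and 28.8% of measured genes. The median GC content was 59.7% in promoters of higher genes, 57.3% in those of lower genes, 59.7% in those of measured genes and 52.7% in all promoters. The median number of CpG sites was 21 in promoters of higher genes, 11 in those of lower genes, 19 in those of measured genes and 7 in all promoters. The part of base composition in the motif shares was not tested. These shares are descriptions, and a match is not evidence of binding.

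Genes of the synaptonemal complex and the HORMA proteins organise and join the chromosome axes. Of 11 measured, 6 were called higher and none lower (median 2.48, and from 1.55 to 2.91 over the alternatives). Syce1, a central element protein, had 6378 in pachytene and 65.7 in the mix (difference 6.60). Sycp2, an axis protein, had 3925 in pachytene and 22.2 in the mix (at least 6.38). Sycp3, the other axis core protein, had 2501 in pachytene and 69.6 in the mix (at least 4.84). The transverse filament gene Sycp1 had 486.8 in pachytene and 21.1 in the mix (at least 2.48). Hormad1, which leaves synapsed axes, had 110.5 in pachytene and 6.25 in the mix (at least 0.34), near the floor. The earlier leptotene/zygotene fraction had higher signals than pachytene for Sycp1 (948.8), Sycp3 (2828) and Hormad1 (205.0). In the cohesin list 3 of 11 were higher and 2 lower, with a median of -0.06 that was 0.50 under median scaling. For comparison, 11.6% of all measured genes were called higher and 12.2% lower. Stag3, the meiotic STAG subunit, had 3841 in pachytene and 22.3 in the mix (at least 5.46). Smc1b, the meiotic SMC subunit, had 1037 in pachytene and 4.55 in the mix (at least 3.57). Their X-linked somatic counterparts were lower, Stag2 with 145.8 in pachytene and 669.2 in the mix, and Smc1a with 211.8 in pachytene and 849.6 in the mix. Rec8, the meiotic kleisin, was under the floor in both groups, at 4.79 in pachytene and 6.20 in the mix, although it read 269.4 in leptotene/zygotene.

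Of 15 recombination and repair genes 6 were called higher and none lower (median 1.13, and from 0.98 to 2.01 over the alternatives). Psmc3ip, which helps the strand exchange recombinases, had 4472 in pachytene and 170.5 in the mix (4.71). Spo11, the enzyme that makes meiotic DNA breaks, had 1362 in pachytene and 95.8 in the mix (3.83). Mlh3, which acts late at crossovers, was at the threshold, with 362 in pachytene and 89.9 in the mix (2.01). Dmc1, the meiotic recombinase, was at the floor itself, with 87.5 in pachytene and 55.7 in the mix. Genes of early recombination such as Mnd1, Tex11 and Prdm9 were under the floor in both groups. All 3 were above it in leptotene/zygotene, at 241.2 for Mnd1, 641.4 for Tex11 and 134.5 for Prdm9.

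For chromosome segregation, the subject of the series, 17 of 35 genes were called higher and 1 lower (median 1.94). Cyclin A1 (Ccna1), needed to leave male meiotic prophase, had 2062 in pachytene and 48.3 in the mix (at least 4.56). Aurka, the spindle pole Aurora kinase, had 4622 in pachytene and 291.3 in the mix (3.99). Meikin, which sets the kinetochores for the first meiotic division, had 531.1 in pachytene and 31.3 in the mix (at least 3.50). Activators of the anaphase promoting complex were both called, Cdc20 with 5167 in pachytene and 720.9 in the mix (2.84), and Fzr1 with 1682 in pachytene and 205.1 in the mix (3.04). Spindle checkpoint kinases Bub1 (2.88), Ttk (2.86) and Bub1b (2.71) lay close together. Securin (Pttg1), the inhibitor of separase, had 13331 in pachytene and 3846 in the mix, and its difference of 1.79 was not called. Cdk1 (1.43), Birc5 (1.01) and Aurkb (0.82) were also above 0 without a call. The lower gene was Fbxo5, an inhibitor of the anaphase promoting complex, with 15.9 in pachytene and 204.6 in the mix (at least 2.12 lower on the log2 scale). The kinetochore protein gene Cenpf, which acts in mitosis too, had 1853 in pachytene and 348.8 in the mix (2.41).

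Genes of the piRNA pathway and germ granules, which silence transposons and store RNA, were called higher in 15 of 20 cases and lower in none (median 3.33). Piwil1, the PIWI protein loaded at pachytene, had 3527 in pachytene and 8.35 in the mix (at least 5.33). Mael had 4450 in pachytene and 2.50 in the mix (at least 6.56), and the germ cell helicase Ddx4 had 2066 in pachytene and 7.14 in the mix (at least 4.56). Tdrd1, a Tudor protein of the granule, was not called, with 260.5 in pachytene and 7.71 in the mix (at least 1.58). Piwil4, a PIWI protein of fetal germ cells, was under the floor in both groups.

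Regulators of translation and RNA handling gave 11 of 16 higher and none lower (median 2.82). Pabpc6, a poly(A) binding protein of germ cells, had 5766 in pachytene and 28.6 in the mix (at least 6.94), and Ybx2, which binds and stores messages, had 5284 in pachytene and 55.4 in the mix (at least 5.92). Boll had 368.8 in pachytene and 77.1 in the mix (at least 2.08). Its relative Dazl had 787.3 in pachytene and 3.61 in the mix (at least 3.17), below its 3514 in leptotene/zygotene. Among transcription and chromatin factors 11 of 19 were higher and none lower (median 2.83). Tcfl5, a helix-loop-helix factor, had 6520 in pachytene and 16.7 in the mix (at least 6.22). Gtf2a1l, the germ cell form of a TFIIA subunit, had 5502 in pachytene and 82.6 in the mix (at least 5.98). Rfx2 had 942.9 in pachytene and 8.70 in the mix (at least 3.43), and Mybl1 had 438.1 in pachytene and 17.7 in the mix (at least 3.22). Crem, which drives spermatid genes, was not called, with 171.6 in pachytene and 190.6 in the mix (-0.15).

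Genes for structures that are built after meiosis followed. Of 38 flagellar and axonemal genes measured, 30 were higher and none lower (median 4.08). They covered radial spokes (Rsph1, Rsph9, Rsph6a), dynein arms (Dnah8, Dnali1), tektins (Tekt1, Tekt2, Tekt4, Tekt5) and the central pair. Spag6l of the central pair had 5866 in pachytene and 13.7 in the mix (at least 6.07). Meig1, which delivers cargo for flagellum assembly, had 10225 in pachytene and 18.2 in the mix (at least 6.87). Some genes of the flagellum were not called. The outer dense fibre gene Odf1 had 125.6 in pachytene and 6.33 in the mix (at least 0.52), although Odf2 of the same structure was called, with 1259 in pachytene and 245.6 in the mix. The fibrous sheath gene Akap4, which is X-linked, was under the floor in both groups (77.4 in pachytene, 69.0 in the mix). Foxj1, the master factor of motile cilia, was under the floor in both groups too, with 51.6 in pachytene and 58.2 in the mix.

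Of 27 acrosomal and sperm-egg genes measured, 19 were higher and none lower (median 4.76). Spink2, an acrosomal protease inhibitor, had 9834 in pachytene and 6.13 in the mix (at least 7.71). Proacrosin (Acr) had 2045 in pachytene and 79.7 in the mix (at least 4.55). Members of the ADAM family followed, with Adam2 at 4986 in pachytene and 15.1 in the mix and Adam32 at 3524 in pachytene and 28.9 in the mix. Spam1, the sperm hyaluronidase, and Acrv1 were under the floor in both groups, and Izumo1, the sperm protein that binds the egg, read 48.6 in pachytene and 29.8 in the mix. Of 9 genes of CatSper and other sperm channels, 4 were higher and none lower (median 0.73, and from 0.65 to 1.61 over the alternatives). They were Catsperz, Catsper2 (3916 in pachytene, 85.5 in the mix), Catsperd and Pkdrej. The pore gene Catsper1 was not called, with 108.1 in pachytene and 102.9 in the mix.

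Most late spermatid genes were faint in both groups. Of 19 in the list 8 were under the floor in both groups, among them the transition protein Tnp1 (2.26 in pachytene, 5.91 in the mix), Tnp2 and the protamine Prm2. Prm1, the other protamine, had 91.1 in pachytene and 124.7 in the mix (-0.45). Of the 11 measured, 2 were higher (Odf4 and Tssk1) and 2 lower (Smcp and Spata3). Among all measured genes 11.6% were higher and 12.2% lower, so these small counts lay near the background. The list median was -0.12. The sign of that median turned under other scalings, between 0.07 and 0.45.

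**Figure D2:**
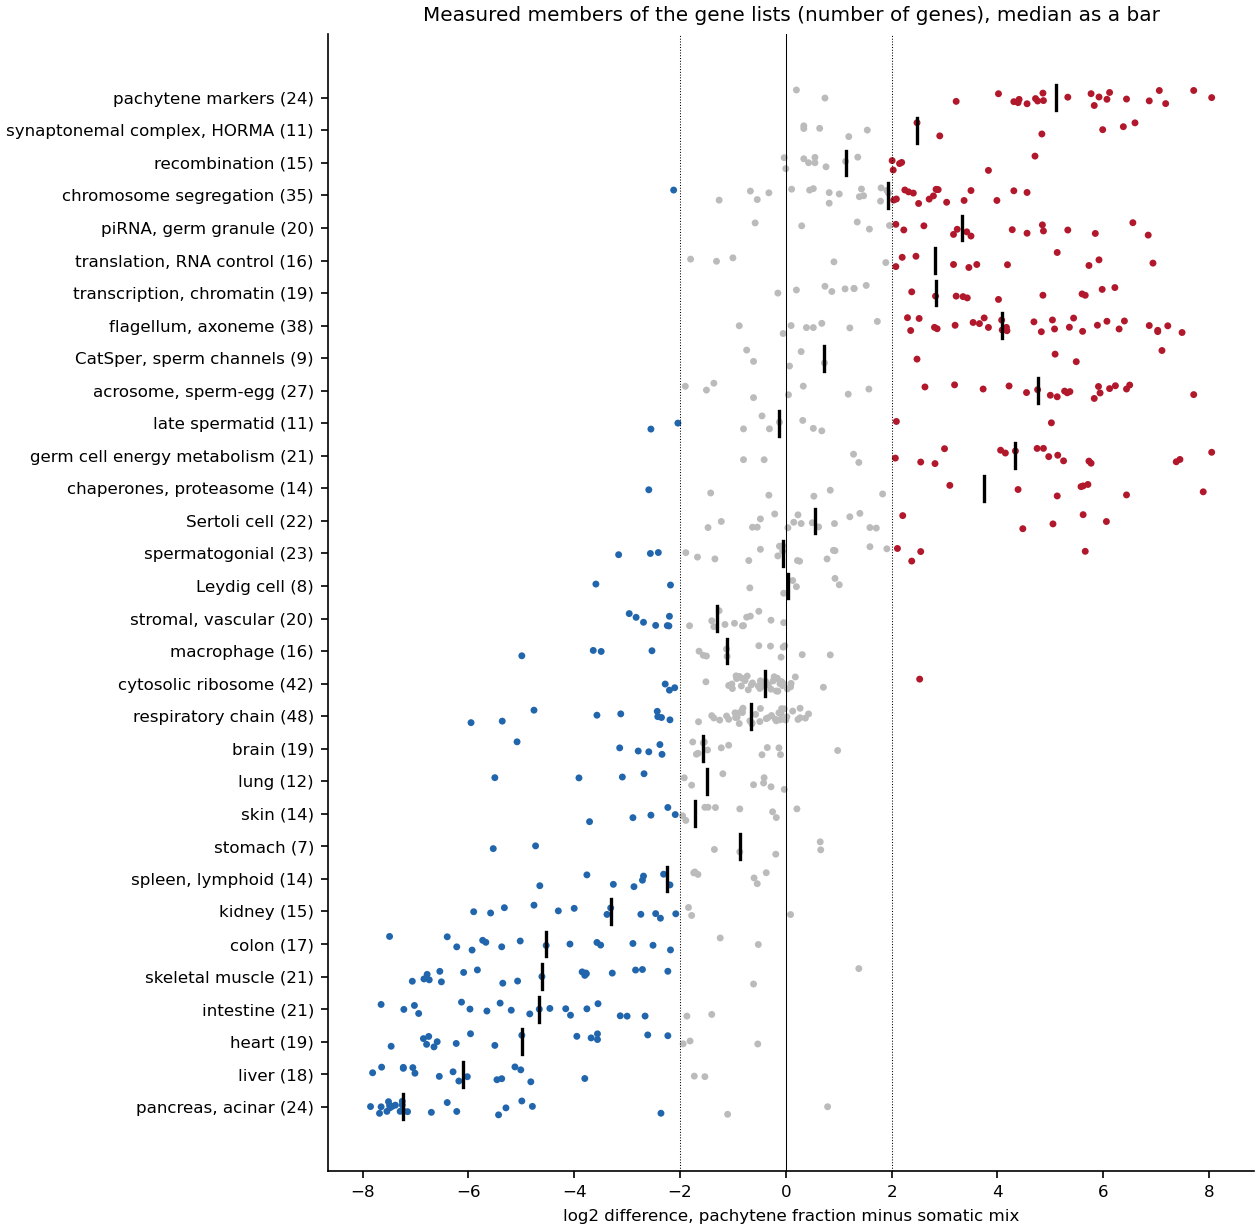
Log2 difference, pachytene fraction minus somatic mix (horizontal), of each measured member of 32 gene lists, 1 row per list with the number of genes in brackets, a black bar at the median and dotted lines at 4-fold. Lists of germ cell genes lie mostly to the right (medians 5.10 for pachytene markers and 4.08 for the flagellum), late spermatid genes near 0, and organ markers to the left (medians -6.10 for liver and -4.99 for heart).

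Of 21 genes of germ cell energy metabolism measured, 17 were higher and none lower (median 4.34). Slc2a3, a glucose transporter, had 13794 in pachytene and 512.7 in the mix (4.75). Cox7b2 had 7828 in pachytene and 32.9 in the mix (at least 7.38), and Cox8c had 12087 in pachytene and 385.5 in the mix (4.97). The sperm glycolytic gene Gapdhs was not called, with 131.9 in pachytene and 229.3 in the mix (-0.80). Pgam2, known as the muscle phosphoglycerate mutase, had 12219 in pachytene and 4694 in the mix (1.38), and it was at 6.73 in spermatogonia and 14.6 in leptotene/zygotene. Among 14 chaperone and proteasome genes 8 were higher and 1 lower (median 3.74, and 1.83 with the floor at the 40th percentile). Hspa2, the meiotic HSP70 protein, had 5515 in pachytene and 263.0 in the mix (4.39), and the proteasome subunit Psma8 had 3069 in pachytene and 5.89 in the mix (at least 5.13). The lower one was the mitochondrial chaperonin Hspd1, with 695.1 in pachytene and 4174 in the mix (-2.59).

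Each germ cell paralog was set beside its broadly expressed counterpart. Of 44 pairs found on the arrays, 38 germ cell paralogs were measured, of which 32 were called higher and none lower. Of 42 counterparts measured, 14 were called lower and 4 higher. Both calls were made in opposite directions in 9 pairs. In glycolysis, Pgk2 had 2548 in pachytene and 5.34 in the mix (at least 29.2-fold higher), while its X-linked parent Pgk1 had 522.6 in pachytene and 9418 in the mix (difference -4.17). At pyruvate dehydrogenase, Pdha2 had 4753 in pachytene and 4.19 in the mix (at least 54.4-fold higher), while X-linked Pdha1 had 261.5 in pachytene and 3364 in the mix (12.9-fold lower). In the mitochondrion, the nucleotide carrier Slc25a31 had 954.1 in pachytene and 11.6 in the mix, while Slc25a4 had 897.1 in pachytene and 15033 in the mix. Cytochrome c followed, with Cyct at 3077 in pachytene and 35.2 in the mix, and Cycs at 1908 in pachytene and 10224 in the mix. Of these counterparts Slc25a4 and Cycs are autosomal, so opposite calls were not limited to X-linked genes. The other opposite pairs were Cox6b2 and Cox6b1, Cox8c and Cox8a, Stag3 and Stag2, Smc1b and Smc1a, and D1Pas1 and Ddx3x.

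The remaining pairs were mixed. Gapdh, Got1, Aldoa, H1f2 and P4hb were called lower without a call for the germ cell paralog. Further counterparts lay below 0 without a call, such as Psma7 (-1.94) and Hspa8 (-1.38). In some pairs the counterpart was near 0 or was called higher as well. Ldha, the somatic partner of Ldhc, had 11126 in pachytene and 7708 in the mix (0.53, within the error limit). Calr, the calreticulin of somatic cells, had 4548 in pachytene and 4550 in the mix. Tbp, the TATA-binding protein, had 1167 in pachytene and 126.1 in the mix (9.26-fold higher), alongside its paralog Tbpl1 with 10384 in pachytene and 356.4 in the mix (29.1-fold higher). The BET protein Brd2 had 4447 in pachytene and 979.5 in the mix (4.54-fold higher), alongside Brdt with 1417 in pachytene and 4.85 in the mix (at least 16.2-fold higher). The calcineurin pair Ppp3cc and Ppp3ca and the nuclear pore pair Pom121l2 and Pom121 were likewise both called higher. The 12 X-linked counterparts were all below 0 with a median of -1.90, and 5 of them were called lower. Of the 30 autosomal counterparts 9 were called lower and 4 higher, with a median of -1.02. For the retrogenes of X-linked parents, 8 of 10 were called higher and none lower (median 4.56). They included Prps1l1, with 8246 in pachytene and 32.9 in the mix (at least 175-fold). The exceptions were Utp14b (1.56) and Cstf2t (1.08).

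**Figure D3:**
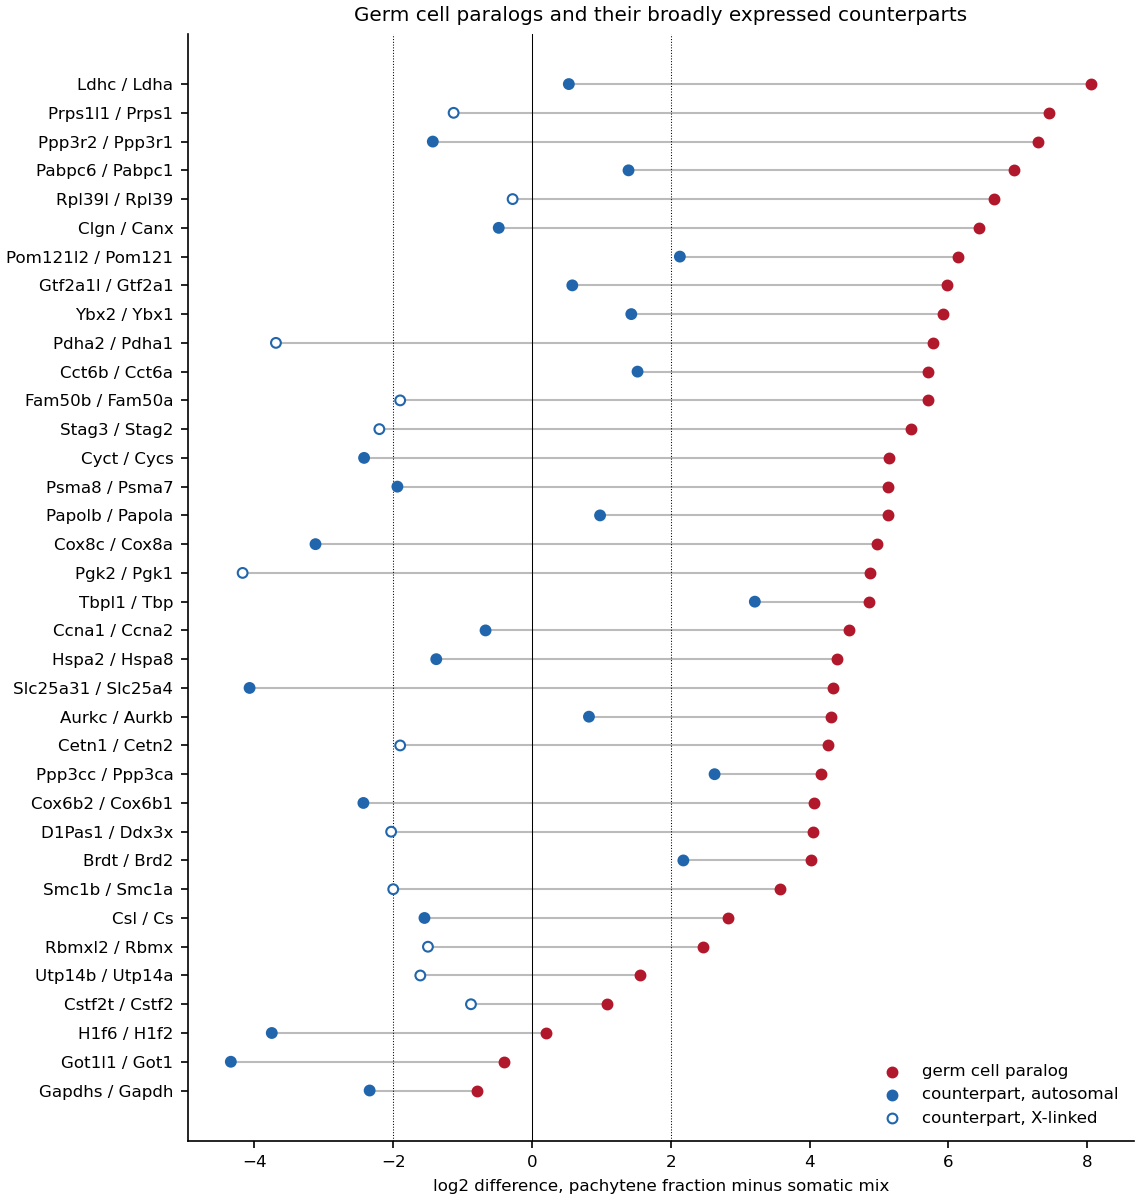
Log2 difference, pachytene fraction minus somatic mix, of germ cell paralogs (red) and their broadly expressed counterparts (blue filled for autosomal, open for X-linked) in the pairs where both were measured, with dotted lines at 4-fold. Germ cell paralogs reach 8.05 (Ldhc), and counterparts range from -4.34 (Got1) to 3.21 (Tbp).

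By chromosome, the X stood apart from the autosomes. The median difference of its 451 measured genes was -1.02, while the 19 autosomes had medians between -0.45 (chromosome 16) and -0.09 (chromosome 5). On the X, 2.66% of genes were called higher and 19.1% lower, while the autosomes ranged from 9.6% to 14% higher and from 9.59% to 16% lower. The gap between the X and the autosomes was -0.72, and between -0.70 and -0.67 under the other scalings, although the X median itself moved to -0.50 under median scaling and -0.63 with the values as deposited. Of the 12 X-linked genes called higher, 11 had a higher signal in leptotene/zygotene than in pachytene, against 4.93% of the 1725 autosomal genes called higher. Cited1, a transcription cofactor, had 698.5 in pachytene and 6.57 in the mix, and 4262 in leptotene/zygotene. Rhox13, a reproductive homeobox gene, had 244.0 in pachytene and 13.0 in the mix, and 3492 in leptotene/zygotene. The exception was Tsga8, with 955.8 in pachytene and 61.5 in the mix, and 31.9 in leptotene/zygotene. Of the 86 X-linked genes called lower, 71 (82.6%) were above the floor in leptotene/zygotene and higher there than in pachytene, against 61.5% of the 1741 autosomal genes called lower. Genes called lower were chosen for a low pachytene signal, so these shares are descriptions. Rps4x, an X-linked ribosomal protein gene, had 2746 in pachytene and 13379 in the mix (-2.28), and 7216 in leptotene/zygotene.

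**Figure D4:**
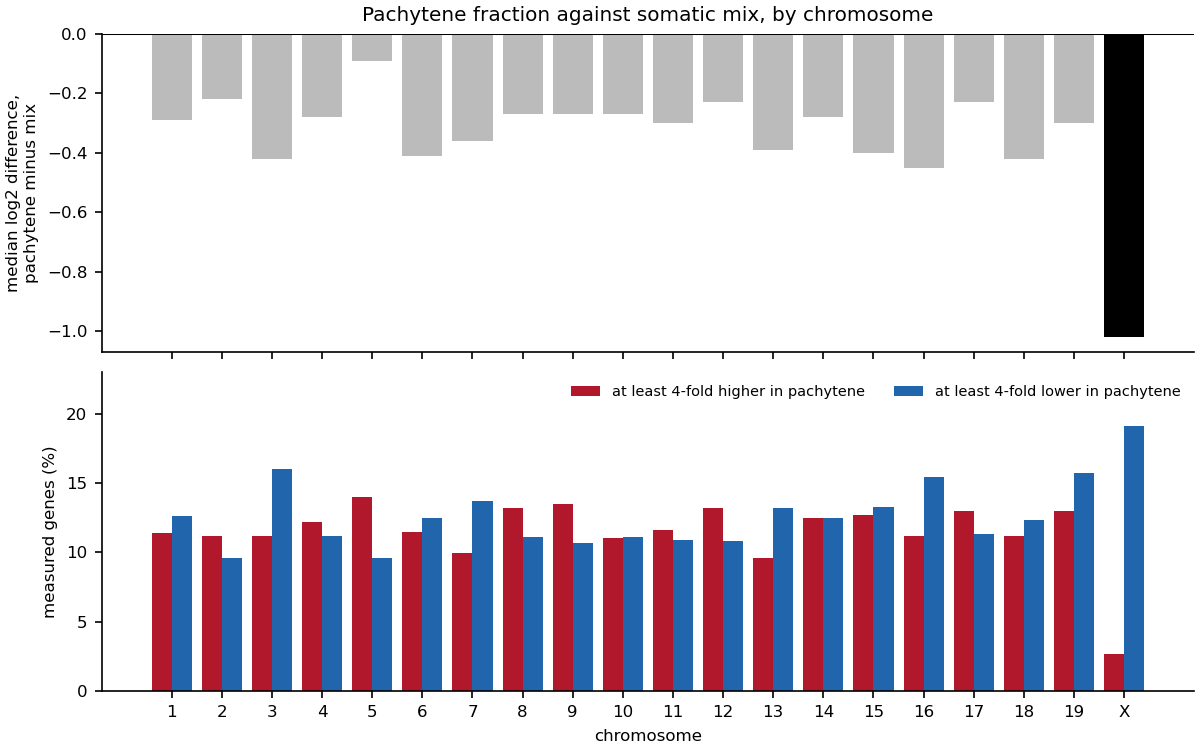
Median log2 difference, pachytene fraction minus somatic mix, of the measured genes of each chromosome (upper panel), and the percent of those genes at least 4-fold higher (red) or lower (blue) in pachytene (lower panel). The X chromosome has a median of -1.02, with 2.66% of genes higher and 19.1% lower.

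On the lower side, the differences were led by products of single organs. Of 18 liver genes 16 were lower and none higher (median -6.10), with albumin (Alb) at 46.4 in pachytene and 17453 in the mix (at least 200-fold lower). Apoa1, the main HDL protein, had 43.0 in pachytene and 19657 in the mix (at least 225-fold lower). Heart was similar, with 16 of 19 lower (median -4.99), among them cardiac myosin light chain Myl2 at 39.98 in pachytene and 15436 in the mix. Skeletal muscle had 19 of 21 lower (median -4.61), with Acta1 at 32.0 in pachytene and 10037 in the mix. Intestine had 19 of 21 lower (median -4.66) and colon 15 of 17 (median -4.53), with Muc2, the gut mucin, at 39.97 in pachytene and 2495 in the mix. Kidney had 12 of 15 lower (median -3.31, and up to -2.14 over the alternatives), with uromodulin (Umod) at 4.89 in pachytene and 4180 in the mix. Spleen and lymphoid genes had 8 of 14 lower (median -2.25, and up to -1.33), with Ighm at 128.9 in pachytene and 3228 in the mix.

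In other organ lists fewer genes were called. Brain had 6 of 19 lower (median -1.56), led by myelin basic protein (Mbp) at 43.5 in pachytene and 2950 in the mix. Skin had 5 of 14 lower (median -1.71, and up to -0.90 over the alternatives), and lung 4 of 12 (median -1.48, and up to -0.61), with the surfactant gene Sftpc at 106.7 in pachytene and 905.3 in the mix. Of 17 stomach genes on the arrays 10 were under the floor in both groups, including Gkn1, Gkn2, Pgc and Atp4b, and 2 of the 7 measured were lower (median -0.87, and from -1.35 to -0.16 over the alternatives). These were Tff2, with 16.5 in pachytene and 4042 in the mix, and Ctse, with 114.8 in pachytene and 3048 in the mix. The gastric acid pump gene Atp4a was not called, with 83.1 in pachytene and 159.7 in the mix, so the stomach is not marked by its defining gland genes in the mix. Over the 11 organ lists 122 of 177 measured genes were lower and none higher, and 116 were under the floor in pachytene.

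Digestive enzymes of the exocrine pancreas, an organ not named in the labels, made up much of the most different genes. Of the 8 genes with the largest lower difference above the floor in both groups, 6 were pancreatic: Cela2a, Ctrb1, Prss2, Cel, Ctrc and Cela1. Elastase Cela2a had 87.38 in pachytene, at the floor of 87.37, and 20181 in the mix, so that its difference (231-fold lower) is in effect a lower bound. The chymotrypsinogen gene Ctrb1 had 102.3 in pachytene and 18617 in the mix (182-fold lower). The other 2 were the cardiac actin Actc1 and the apolipoprotein Apoc1. Among the 8 lower genes under the floor in pachytene, Rnase1, Reg1, Clps, Zg16 and Ctrl are also products of acinar cells, besides Apoa1, Alb and Myl2. In a list of acinar genes written after these values were seen, 22 of 24 were lower and none higher (median -7.24). Of its members 3 (Reg1, Sycn, Zg16) also stood in the intestine and colon lists. Its summed signal was 1626 in pachytene and 281642 in the mix, and the liver list summed to 1038 in pachytene and 132073 in the mix. The acinar transcription factor Bhlha15 had 49.7 in pachytene and 447.9 in the mix, and Ptf1a had 59.8 in pachytene and 187.0 in the mix. Of 7 islet genes measured 4 were lower (median -3.07, and up to -1.92 over the alternatives), with insulin (Ins2) at 35.5 in pachytene and 2884 in the mix. How acinar RNA came to be in the mix was not tested. Leaving out all organ and pancreas marker genes left 1684 of the 1829 lower genes.

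**Figure D5:**
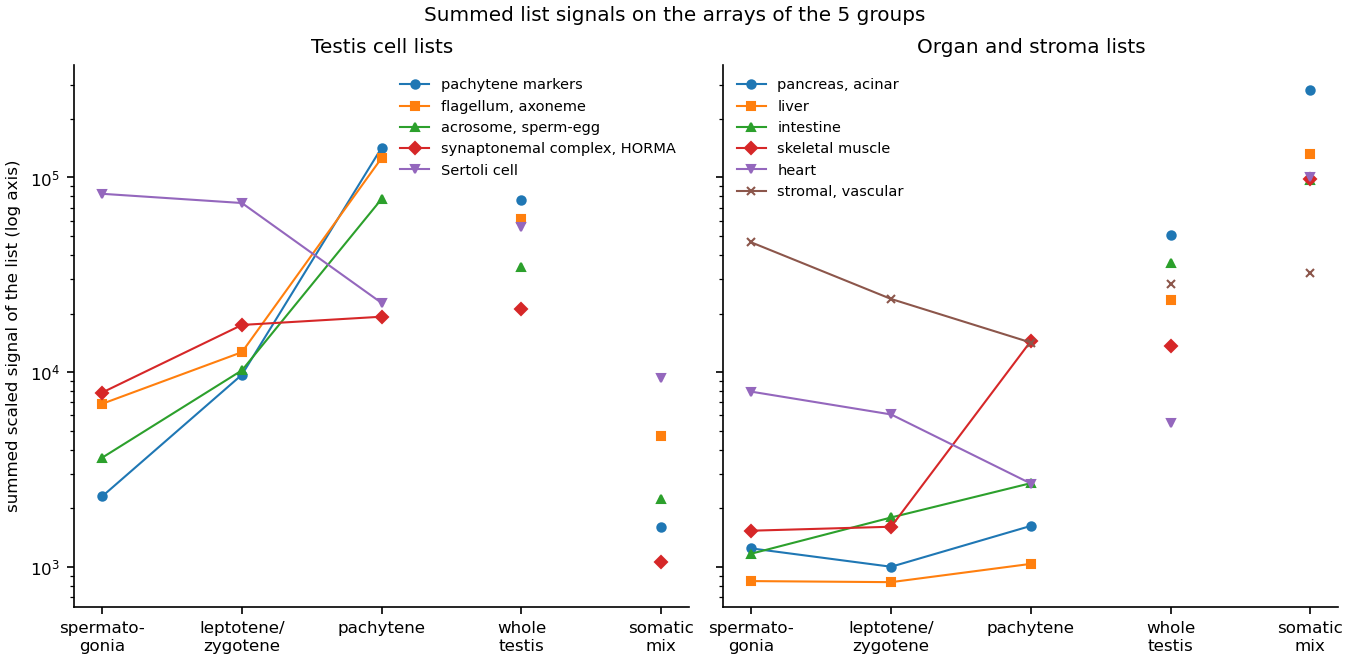
Summed scaled signal of gene lists (log axis) on the arrays of the 5 groups, with testis cell lists on the left, organ and stroma lists on the right, and lines joining the 3 germ cell stages. Pachytene markers sum to 142327 in pachytene and 1598 in the mix, acinar genes to 1626 in pachytene and 281642 in the mix.

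Markers of other testis cells were used to see what else the fraction held. Sertoli cells, which surround the germ cells, left 5 of 22 genes called higher and none lower (median 0.56, and from 0.19 to 0.98 over the alternatives): Cst12, Defb19, Aard, Cst9 and Inha. Cst12, a cystatin, had 5823 in pachytene and 37.0 in the mix (at least 6.06), and 12622 in spermatogonia and 12771 in leptotene/zygotene. Sox9, a defining Sertoli factor, had 94.5 in pachytene and 109.0 in the mix, and Amh was under the floor in both groups. The Sertoli list summed to 22664 in pachytene and 9320 in the mix. Its part in the higher calls outside the list was not tested. Of 23 spermatogonial genes 4 were higher and 3 lower (median -0.06, and 0.54 under median scaling), with Stra8, which starts meiosis, at 376.4 in pachytene and 47.8 in the mix, and 3295 in leptotene/zygotene. The stem cell receptor Gfra1 had 62.6 in pachytene and 232.0 in the mix (-1.89). Over all measured genes 11.6% were called higher and 12.2% lower, so the spermatogonial counts lay near the background. Of 8 Leydig genes none was higher and 2 were lower (median 0.05, and -0.03 with the values as deposited), and the steroidogenic gene Cyp11a1 was under the floor in both groups.

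Stroma and blood lay toward the mix. Of 20 stromal and vascular genes 7 were lower, none higher and all below 0 (median -1.31). The collagen gene Col1a1 was close, at 1657 in pachytene and 1702 in the mix. Macrophage genes had 4 of 16 lower and none higher (median -1.12, and up to -0.29 over the alternatives), and 14 lay below 0. C1qa was near 0, at 443.0 in pachytene and 472.0 in the mix. Signals of Col1a1 and C1qa were thus above the floor in the fraction, while most members of both lists lay toward the mix. Erythroid genes had 4 of 5 lower (median -4.97, and up to -2.75), and the adult globin probe sets of Hba-a1, Hba-a2 and Hbb-b2 were under the floor in both groups.

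Genes of translation and respiration were mostly not called, as were most measured genes (11.6% called higher and 12.2% lower). The genes named for lying within the error limit, so that their small difference is no finding, were Rpl41 (19975 in pachytene, 18513 in the mix), Rps29, Rps28, the elongation factor Eef1a1 (16002 in pachytene, 16420 in the mix), Cox7a2 and Cox6c. Of 42 cytosolic ribosomal protein genes 1 was higher, 3 were lower and 36 lay below 0, and the median of -0.40 became 0.15 under median scaling. In the respiratory chain 9 of 48 were lower and none higher (median -0.66, and from -0.91 to -0.11 over the alternatives). The 3 with the largest difference encode the heart and muscle isoforms Cox8b (40.6 in pachytene, 5387 in the mix), Cox6a2 and Cox7a1. The others were Ndufa4, Cox8a, Cox6b1, Cycs, Atp5g1 and Cyc1, of which Cox8a, Cox6b1 and Cycs have germ cell paralogs called higher above.

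The 100 probe sets on both designs allowed a test with limma across all 10 arrays, which pools the spread of the 5 groups. Log2 values of the second design were first shifted by a constant to the mean of the first. In this paragraph the second signal of each group is on that aligned scale. At a Benjamini-Hochberg adjusted p under 0.05, 28 were higher (28% of those tested) and 46 lower (46%), and 75 had an unadjusted p under 0.05. Gps1, a subunit of the COP9 signalosome, had 6901 and 5329 on the pachytene arrays and 1134 and 1474 on the mix arrays (difference 2.23 ± 0.18 SE, limma adjusted p = 9.01e-12). Zranb1, a deubiquitinase, had 1982 and 1674 on the pachytene arrays and 351.9 and 458.1 on the mix arrays (2.18 ± 0.17 SE, limma adjusted p = 9.01e-12). Gbf1, an exchange factor of the Golgi, was read by 2 probe sets with differences of 1.89 and 1.86. Rfk, riboflavin kinase, had 137.1 and 154.8 on the pachytene arrays and 1391 and 1326 on the mix arrays (-3.22 ± 0.17 SE, limma adjusted p = 2.77e-15). The Golgi membrane gene Golm1 had 93.1 and 86.4 on the pachytene arrays and 825.5 and 776.0 on the mix arrays (-3.16 ± 0.18 SE, limma adjusted p = 6.32e-15). Groups did not overlap in any of these genes, which follows largely from taking the largest differences. Lower genes also included Sap30l, a histone deacetylase cofactor (-2.78), Ssr3 of the translocon (-2.11), and Rab7 of late endosomes. Whether samples numbered 1 and 2 came from separate preparations is not given, so these p-values measure only the spread between these samples, which may be technical.

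Different probe sets for the same gene on the other design gave a check that shares no array. Of 2194 genes measured on both, 255 were called higher on the first design, and 145 of these (56.9%) had the same direction on the second, 52 with a call. Of 204 called lower on the first, 194 (95.1%) had the same direction on the second, 52 with a call. These shares depended on the scaling, from 56.9% to 89.1% for higher and from 65.1% to 95.1% for lower genes. The second design also had a lower centre, with a median of -0.52 over the shared probe sets against -0.03 on the first. The share of all 2194 genes below 0 on the second design was not taken, so 56.9% and 95.1% have no base rate beside them. Of 20 germ cell list genes called higher on the first design and also measured on the second, 18 had the same direction there and 10 were called. Psmc3ip repeated closely, with 3434 in pachytene and 131.9 in the mix on the second design (4.70, and 4.71 on the first). Boll was larger there, with 860.9 in pachytene and 31.5 in the mix (at least 4.19, and at least 2.08 on the first). Of the other 10, Zpbp and Eif4g3 had the opposite sign, with -0.28 and -0.26. Differences on the second design were also within the error limit for Brdt (0.17), Catsper2 (0.31), Cox8c (0.43), Cfap61 (0.46) and Cenpf (0.50). Rfx2 (0.88, with 97.9 in pachytene and 53.2 in the mix, near the floor), Tbpl1 (0.93) and Hspa4l (0.93) exceeded it without a call. The values of these genes given above are from the first design. For organ genes, 9 of 9 called lower on the first design were lower on the second, 4 with a call, again without a base rate. Transthyretin (Ttr) had 14.9 in pachytene and 14271 in the mix there. Of 6161 genes with several probe sets, 9 had probe sets called in opposite directions. One was the cytokine gene Mif, with 973.5 in pachytene and 5297 in the mix on the first design, and 579.4 in pachytene and 75.8 in the mix on the second.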

How the data were processed

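Total RNA of 5 groups was amplified, labelled with biotin and hybridised to 2 Affymetrix designs, 1 array per group and design, per the labels' protocols. The deposited values are linear intensities per probe set, made by the authors with GCOS 1 per the submitters' processing notes. The sources used here do not state the scaling target, the background step or the detection calls. The deposited intensities were not on a common scale, with trimmed means of 382.6 to 484.4 on the first design and 63.38 to 147.7 on the second. Every sample column belonged to a labelled sample. The number of arrays limits the precision.

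Within a design, the 5 arrays were brought to 1 common trimmed mean (2% cut at each end). Probe sets were named from the platform annotation where it gave 1 gene (20393 of 22690 and 14674 of 22575), with symbols updated through RefSeq. Probe sets with several genes (691 and 245) or none (1542 and 7592) were left out, as were 64 controls on each design. A gene was read from its brightest probe set (mean of log2 values), preferring the first design if that exceeded the floor. For the first design, 70 probe sets of chemosensory receptors gave the floor, as their 90th percentile. With 14 such probe sets, under the minimum of 20, the other design took its median signal as the floor. Genes were called at 4-fold without a test, and the error came from 100 probe sets common to both designs, as the root mean square of the gap in their differences over the square root of 2. Those 100 were tested with limma 3.58.1 in R 4.3.3 over all 10 arrays without a block, Benjamini-Hochberg adjusted. For this test a constant was added to the log2 values of the second design to match the mean of the first. Python 3.11.15 with numpy 2.4.6, pandas 2.3.3 and matplotlib 3.10.9 did the rest, and the calling code was tested on simulated data. Samples were grouped by their titles.

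The text names, in each direction, the 8 genes with the largest difference above the floor in both groups, the 8 with the highest signal against a group at the floor, 6 within the error limit, the 4 markers, and list members with the largest differences or at the floor. From the first 3 of these, clones without a name and genes with disagreeing probe sets were dropped. Other list members named were chosen after their values were seen. The genes, lists and pairs were chosen with earlier results of these data known, and the pancreas lists after their genes had been seen here. Alternatives varied the scaling, floor, probe set rule, fold, design, block and arrays.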

Additional observations from a re-analysis of the deposited data

Results flagged for a closer look

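The marker lists of several organs gave a signal on arrays outside the comparison, those of whole testis at day 15, above their sums in the isolated fractions. This did not hold for all organ lists: heart summed to 5476 in whole testis and 7948 in spermatogonia. The brain, lung, muscle and stomach lists summed to no more in whole testis than in pachytene, though stomach was close (2170 and 2183). Muscle summed to 13705 in whole testis and 14463 in pachytene, but Pgam2 alone gave 12219 of the pachytene sum. In the earlier stages muscle summed to 1536 in spermatogonia and 1610 in leptotene/zygotene. These muscle sums therefore do not describe the other muscle genes. The acinar pancreas list summed to 50398 in whole testis, 17.9% of its sum in the mix, and to 1246 in spermatogonia, 1003 in leptotene/zygotene and 1626 in pachytene. The liver list summed to 23588 in whole testis, also 17.9% of the mix, and to 846.7 in spermatogonia, 836.1 in leptotene/zygotene and 1038 in pachytene. The intestine list summed to 36436 in whole testis, 37.6% of the mix, and to 1171 in spermatogonia, 1796 in leptotene/zygotene and 2695 in pachytene. The colon list summed to 9361 in whole testis and 60705 in the mix, and to 807.5 in spermatogonia, 735 in leptotene/zygotene and 828.7 in pachytene. These lists share genes with the acinar list. Zg16 gave 4058 of the colon sum in whole testis, and Reg1 gave 3322 of the intestine sum there. Kidney, skin and spleen lists exceeded the fractions by less, with kidney at 2470 in whole testis and 1478 in spermatogonia. How these sums came about was not tested. The whole testis arrays also had the highest 3' to 5' ratio of Gapdh, 4.33 and 3.76, against 1.49 and 1.52 for pachytene.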

How the results depend on the processing

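Median scaling lowered the count of lower genes to 1179 and moved the median difference above the floor to 0.24 and the X median to -0.50, and unscaled values moved these medians to 0.14 and -0.63. A floor at the 60th percentile left 1174 lower genes. At 2-fold 3362 genes were higher and 4685 lower, and at 8-fold 914 and 689. Without replicate 1 or 2, that is on 1 design alone, 807 to 1050 genes were higher and 654 to 1394 lower, since fewer genes are read. The error of a difference was 0.77 after quantile normalization. Of the 100 shared probe sets 48 were called on unscaled values, 70 to 76 leaving out single arrays, and 75 with a replicate block against 74 without. The gap between samples 1 and 2 of a group, over the 100 shared probe sets, correlated between groups at -0.02 to 0.57 over 10 pairs of groups. Not every pair exceeded 0.1, so same-numbered samples were not taken as paired, though they share an array design. Where no cause is named, the cause was not tested. Main higher genes stayed called for 93.2% to 99.9% and lower genes for 64.3% to 89.1% under other scalings. List medians gave 351 values under alternatives, of which 220 moved by less than the error, and the sign changed for cohesin, ribosomal, Leydig, late spermatid and spermatogonial genes. With 1 array per gene and group, differences under 0.61 cannot be told from error, and genes near the floor have bounds only. That limit came from identical probe sets on both designs, and whether it holds for faint genes was not tested.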

Other observations

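Genes of antigen presentation and interferon response lay toward the mix, with 10 of 21 lower and none higher (median -1.92). Psmb8, a subunit of the immunoproteasome, had 15.2 in pachytene and 1073 in the mix (at least 3.62 lower on the log2 scale). Cd74, the invariant chain of MHC class II, had 161.7 in pachytene and 2195 in the mix (-3.76), and B2m, the MHC class I light chain, had 2496 in pachytene and 10779 in the mix (-2.11). Of 34 extracellular matrix genes 3 were lower and none higher (median -1.04, and up to -0.48 over the alternatives): Fn1, Col5a2 and Timp3. That share was below the 12.2% of all measured genes called lower. Fibronectin (Fn1) had 494.1 in pachytene and 3179 in the mix.

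Of 23 immediate-early and stress genes 2 were higher and none lower (median 0.64, and from 0.43 to 1.20 over the alternatives), a share below the 11.6% of all measured genes called higher. Fos had 5015 in pachytene and 600.9 in the mix (3.06), and Fosb had 493 in pachytene and 67 in the mix (at least 2.50). Their signals were higher still in the other isolated fractions, with Fos at 11645 in spermatogonia and 9032 in leptotene/zygotene, while whole testis, taken without fractionation per its title, had 154.1.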
